A study of Sus scrofa with 41 samples.

Results

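The mitochondrial genome of the pig holds 13 protein genes, and 9 of them are described here by their symbols: ND1, ND2, ND4 and ND5 of complex I, CYTB of complex III, COX1, COX2 and COX3 of complex IV, and ATP6 of complex V. They were chosen by name and are 9 of the 25880 genes in the count tables, and all 9 passed the filter on low counts. The samples were psoas major muscle, a deep loin muscle, from 41 uncastrated purebred Danbred boars, 13 Duroc and 28 Landrace, which were kept at a breeding station and fed ad libitum. The labels give the feed conversion ratio (FCR), the RNA integrity number (RIN), the age and the batch of each pig, and the study asked which muscle genes go with FCR. The FCR values of the labels ran from 1.83 to 2.25. Age ran from 131 to 166 days, with a mean of 147 ± 7.19 (SD) for Duroc and 155 ± 4.75 for Landrace. The study's text words the ratio in one place as feed over gain and in its methods as gain over feed. Pigs eat more than they gain, so that labelled values above 1 are of the size of feed over gain, and a higher value is then a pig that ate more for the same gain.

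Mitochondria carry their own circular DNA, which encodes core subunits of most of the complexes that couple the oxidation of nutrients to the making of ATP. All other subunits, and the proteins that copy, transcribe and process this DNA, are encoded in the nucleus. The mitochondrial DNA is transcribed as long precursors that cover many genes, and most of the messenger RNAs cut from them are polyadenylated. Skeletal muscle is rich in mitochondria, and slow oxidative fibres hold more of them than fast fibres. In these bulk samples, fewer mitochondria-rich fibres and less mitochondrial RNA per fibre cannot be told apart.

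Depth differed little, with 22188911 counts on genes in the shallowest pig, 25243577 in the median pig and 25954816 in the deepest, and a member held between 113140 and 1152691 counts in a pig. Counting error is therefore small beside the differences between pigs. The batches held 1, 15, 9, 5 and 11 pigs, and batch 1 was a single Duroc pig, Duroc 2. RIN ran from 6.5 to 8.8, with a mean of 8.12 ± 0.426 (SD) for the 13 Duroc and 7.84 ± 0.496 for the 28 Landrace pigs. FCR was 1.97 ± 0.103 and 2.10 ± 0.0796 (SD) in the same pigs. Markers of muscle fibres were high in every pig, with a summed level of at least 91107 CPM (counts normalised to library size), while the adipocyte markers summed to at most 159 CPM and the leukocyte markers to at most 83.2 CPM. The endothelial, smooth muscle and red blood cell markers summed to at most 174, 209 and 203 CPM, and the fibroblast markers to between 395 and 9098 CPM. Duroc 10 and Landrace 27 stood apart with the highest levels of the mitochondrial genes, and Duroc 8 had the lowest.

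Together the 9 genes held 13.98% ± 4.35 (SD, n = 41) of all counts on genes. The lowest sum was 8.21% in Duroc 8, the median was 13.0% and the highest was 29.4% in Duroc 10. Landrace 27 followed with 27.9%, and no other pig exceeded 20%. The sum exceeded 15% in 12 pigs. It was larger than the share of ACTA1, the skeletal muscle actin and the gene with the most counts, in 33 of the 41 pigs, where ACTA1 held 10.5% ± 1.27 (SD, n = 41).

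**Figure D1:**
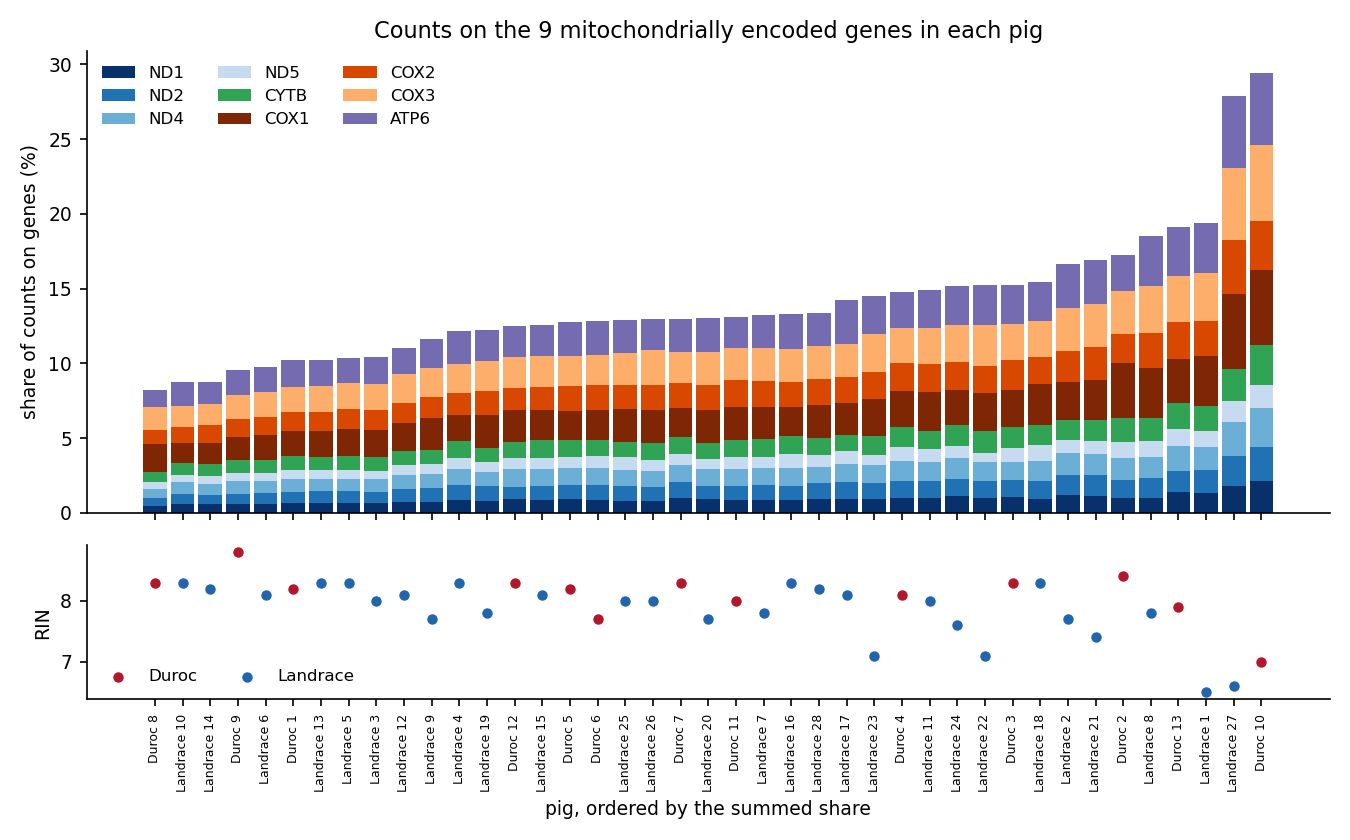
Each bar is 1 of the 41 pigs, ordered by the summed share of counts on genes (%), and is stacked by the shares of the 9 mitochondrial genes, with the RIN of the same pig as a dot in the lower panel, coloured by breed. The sum runs from 8.21% to 29.4%, and the 3 pigs at RIN 7.0 and below have the 3 highest sums.

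Of the complex I genes, ND5 and ND1 had the lowest shares of the 9. ND1, at MT:3922-4876 in Sscrofa11.1 (ENSSSCG00000018065), encodes a subunit of the membrane arm next to the ubiquinone site, and its share was lowest at 0.438%, had a median of 0.904% and was highest at 2.14%. ND2 (MT:5087-6128, ENSSSCG00000018069), a subunit of the same arm, ran from 0.580% to 2.29% with a median of 1.00%. ND4 (MT:11359-12736, ENSSSCG00000018087) and ND5 (MT:12935-14755, ENSSSCG00000018091) encode proton-pumping subunits of that arm. The share of ND4 ran from 0.567% to 2.59% with a median of 1.15%. That of ND5 ran from 0.451% to 1.53% with a median of 0.757%, the lowest of the 9 although its gene is the longest.

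CYTB (MT:15342-16481, ENSSSCG00000018094) encodes cytochrome b, the only mitochondrially encoded subunit of complex III. Its share ran from 0.725% to 2.68% with a median of 1.13%. The complex IV genes encode the catalytic core of cytochrome c oxidase, with COX1 (MT:6511-8055, ENSSSCG00000018075) carrying the site where oxygen is reduced. The COX1 share ran from 1.33% to 5.06% with a median of 2.19%. COX2 (MT:8203-8890, ENSSSCG00000018078), which takes electrons from cytochrome c, ran from 0.961% to 3.56% with a median of 1.71%. COX3 (MT:9800-10583, ENSSSCG00000018082) ran from 1.42% to 5.10% with a median of 2.16%. ATP6 (MT:9120-9800, ENSSSCG00000018081), the proton channel subunit of ATP synthase, ran from 1.09% to 4.83% with a median of 2.25%. The coordinates and lengths are those of the RefSeq gene models. Each of the 9 genes is an exon of its own without introns.

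The order of the levels changed once they were divided by gene length. ATP6 led with 3.49% ± 1.11 of counts per kb (SD, n = 41), and it exceeded COX3 in 39 of 41 pigs. COX3 had 2.97% ± 0.963 per kb and exceeded COX2, at 2.55% ± 0.753 per kb, in all 41 pigs. COX1, which had one of the largest shares, stood at 1.52% ± 0.514 per kb, below COX2 in all 41 pigs by a median ratio of 1.74. CYTB had 1.07% ± 0.324, ND2 1.01% ± 0.321, ND1 0.968% ± 0.328 and ND4 0.862% ± 0.269 per kb. The means of these last 4 lay within 1 SD of each other, and CYTB exceeded ND2 in 29 pigs, ND2 exceeded ND1 in 33 pigs and ND1 exceeded ND4 in 39 pigs. ND5 stood far lower, at 0.436% ± 0.130 per kb.

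The other 4 protein genes of the mitochondrial genome were lower still in share. ND6, the only one of the 13 on the other strand, held 0.362% ± 0.133 (SD, n = 41) and ND3 0.270% ± 0.0869. ATP8 held 0.0492% ± 0.0140 and ND4L 0.0413% ± 0.0102. Both lie in overlaps, ATP8 sharing 43 bases with ATP6 and ND4L sharing 7 with ND4, and a read pair that touches both genes of an overlap is not counted. ATP6 shares 1 base with COX3 and ND5 shares 17 with ND6, so part of the pairs of ATP6, COX3, ND4 and ND5 was lost in the same way. Levels at these genes are therefore lower bounds of the pairs sequenced from them. For COX1 the sum of the counts by strand exceeded the unstranded count by 8.72% on average, so its level is a lower bound as well.

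**Figure D2:**
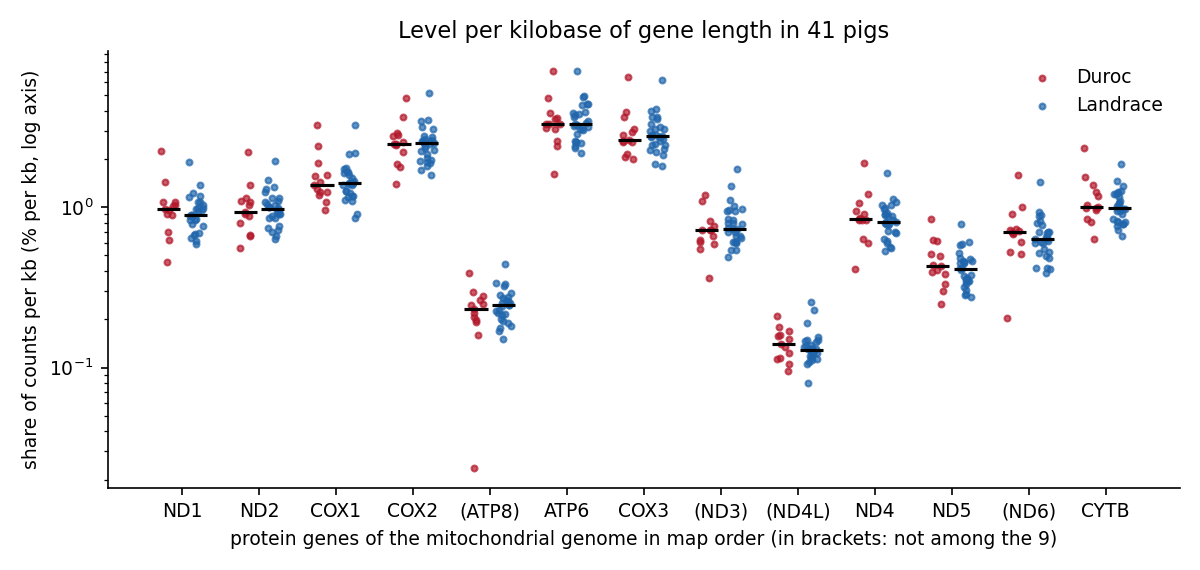
Share of counts per kb of gene (%, log axis) of the 13 mitochondrial protein genes in map order, each point 1 pig coloured by breed, with a black bar at the median. ATP6, COX3 and COX2 lie highest, ND5 is the lowest of the 9 genes described, and ATP8 and ND4L lie below it.

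The 9 genes rose and fell together between pigs. Over the 36 pairs of members, the correlation of the log2 counts ran from r = 0.849 to 0.980 with a median of 0.938 (n = 41 pigs, which share their library and its depth between the 2 genes). The SD of a log2 share was 0.385 to 0.433 over the pigs, while the SD of the log2 ratio of 2 members was 0.0809 to 0.214 with a median of 0.133. The closest pair was ND1 and ND4, whose ratio of counts had a median of 0.774 and ran from 0.669 to 0.867. The widest pair was ND1 and COX1, with a median of 0.399 and a range from 0.240 to 0.506. COX1 and COX3, of the same enzyme, had nearly equal counts, with a median ratio of 0.994 and a range from 0.891 to 1.29.

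Single pigs departed from this balance. The level of each gene was set relative to the mean log2 count of the 9 in the same pig. In Duroc 8, COX1 was 1.18 above that mean and COX3 0.96 above it, both the highest of all pigs, while ND1 at -0.88, ND4 at -0.50 and ATP6 at 0.44 were the lowest of all pigs. Duroc 8 also had the lowest ATP8 count, 1249, against 7859 in the next pig, Landrace 5. ND5 was lowest in Landrace 22, at -1.27, and next in Landrace 23, at -1.17, the 2 pigs with RIN 7.1. Over all pigs the relative level of ND5 rose with RIN (r = 0.564, Spearman's rho = 0.561, n = 41, given as a description), and it was 0.670 without the pigs with RIN below 7. The next among the members in size was COX3, with r = -0.328, and -0.458 without Duroc 8. The r of the relative levels with FCR was largest for ATP6, the next in size being ND2 at 0.269, and is given without a test. The relative level of ATP6 had r = 0.463 with FCR over all pigs, 0.439 within the 13 Duroc and 0.25 within the 28 Landrace pigs. Its breed means were 0.68 ± 0.108 (SD) and 0.75 ± 0.0788, and FCR also differed between the breeds.

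**Figure D3:**
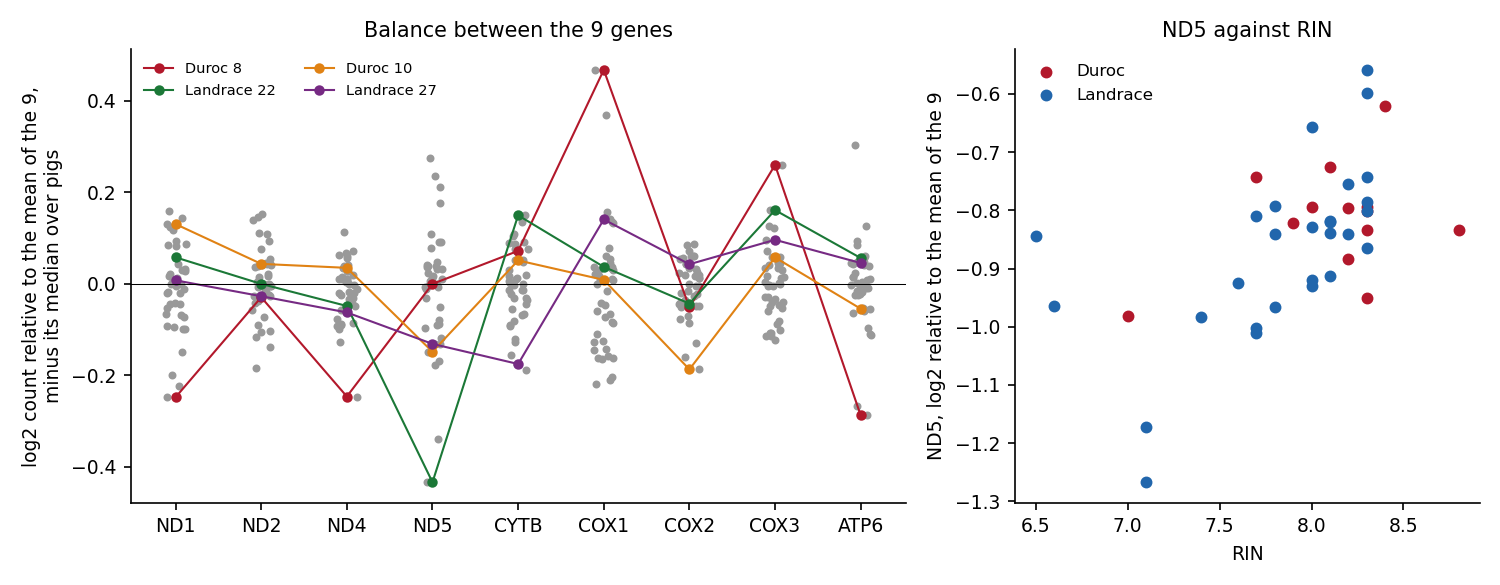
Left, the log2 count of each of the 9 genes relative to the mean of the 9 in the same pig, minus its median over the 41 pigs, with lines for Duroc 8, Landrace 22, Duroc 10 and Landrace 27 and grey points for all pigs. Right, the relative log2 level of ND5 against RIN by breed, where the 2 lowest pigs are Landrace 22 and Landrace 23.

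All 9 genes were lower in pigs with higher RIN, in the shares and in the model. The summed share was 19.4% in Landrace 1 at RIN 6.5, 27.9% in Landrace 27 at RIN 6.6 and 29.4% in Duroc 10 at RIN 7.0. At RIN 8.3 it ran from 8.21% to 15.5% over 10 pigs with a median of 12.3%, and Duroc 9, at the highest RIN of 8.8, had 9.53%. The 3 pigs with the lowest RIN were thus above every one of the pigs at RIN 8.3. Duroc 13 at RIN 7.9, Landrace 8 at RIN 7.8 and Duroc 2 at RIN 8.4 were exceptions with sums of 19.1%, 18.5% and 17.2%, and the 2 pigs at RIN 7.1 had only 14.5% and 15.2%.

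The fitted change per unit of RIN was close for all members. In edgeR's quasi-likelihood test with Benjamini-Hochberg adjustment, 9 of 9 members were lower with RIN, where 51.8% of all 11146 genes were called and 27.9% were called lower. The log2 coefficient was -1.0 for ND1 (SE 0.143, FDR 9.65e-07), -0.98 for ND2 (SE 0.137, FDR 7.27e-07) and -0.94 for ND4 (SE 0.142, FDR 2.45e-06). ND5 had the smallest, -0.84 (SE 0.148, FDR 2.31e-05). That of CYTB was -0.93 (SE 0.129, FDR 7.05e-07). COX1 had the largest, -1.02 (SE 0.120, FDR 5.4e-08), COX2 had -0.91 (SE 0.131, FDR 1.05e-06) and COX3 -1.0 (SE 0.123, FDR 1.06e-07). ATP6 had -0.98 (SE 0.144, FDR 1.66e-06).

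The median over the members was -0.98 per unit of RIN, a fold of 0.508, while the median over all genes was -0.01. In all, 49 of the 11146 genes had a lower coefficient than the median member, among them the members COX1, ND1, COX3 and ND2 and the mitochondrial gene ND3. With library size in place of TMM the median of all genes moved to 0.30 and that of the members to -0.66. On that scale 9 of 9 members were again lower, where 7.91% of genes were, and 6225 genes were called higher and 882 lower. All 9 were lower in every other alternative fitted for RIN as well, with a median of -0.71 without Duroc 8, Duroc 10 and Landrace 27, and of -1.08 to -0.85 over the 41 fits that left out 1 pig.

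The permutation test on the shares gave the same direction. Pearson's r with RIN ran from -0.727 for COX3 (permutation p = 2e-05, adjusted over all genes 0.000105, Spearman's rho = -0.582) to -0.493 for ND5 (permutation p = 0.00186, adjusted 0.0045, rho = -0.301, permutation p = 0.0555). All 9 were called, where 7.02% of genes were called negative. Without Landrace 1 and Landrace 27, the 2 pigs farthest from the median RIN, r ran from -0.636 to -0.298 and 8 of 9 remained below the threshold (4.83% of genes), ND5 being the exception with an adjusted p of 0.117 in the permutation test.

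Within batches the sign of r was negative for all 9 genes in each of the 3 batches with at least 6 pigs. In batch 2 (n = 15) r ran from -0.730 to -0.514, and COX1, ND2 and COX3 were called (3.04% of genes called negative). In batch 3 (n = 9) r ran from -0.633 to -0.249, and 0 of 9 members and 0 genes were called by the exact permutation test, with 0 members and 666 genes at an unadjusted p under 0.05. In batch 5 (n = 11) r ran from -0.793 to -0.585, and 8 of 9 were called (2.61% of genes). Batches 1 and 4 held 1 and 5 pigs, below the minimum of 6 set for a value. Within the Duroc pigs r ran from -0.807 to -0.694 with 6 of 9 called (1.45% of genes), and within the Landrace pigs from -0.787 to -0.495 with 9 of 9 called (6.70% of genes). On ranks fewer passed. Spearman's rho was -0.474 to -0.312 in the Duroc pigs and -0.612 to -0.327 in batch 2, and 0 of 9 passed on it in either (adjusted permutation p of 0.419 to 0.630 and of 0.259 to 0.524). In the Landrace pigs 8 of 9 passed on ranks, all but ND5 (adjusted permutation p = 0.135), and 7 of 9 did in batch 5, all but ND1 (0.130) and ND5 (0.671). The shares of genes in brackets above are those of Pearson's r, and none is given for ranks.

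Single pigs carried much of these values in the Duroc pigs and in batch 2, and less in the Landrace pigs and in batch 5. Without Duroc 10, r in the Duroc pigs was -0.453 to -0.176 (n = 12), and without Landrace 27 it was -0.724 to -0.283 in the Landrace pigs (n = 27). Without Landrace 1 it was -0.50 to -0.210 in batch 2 (n = 14). Without Duroc 10 and Landrace 27 it was -0.809 to 0.356 in batch 5 (n = 9), where ND5 was the member above 0. The median r of the members went from -0.784 to -0.392 in the Duroc and from -0.745 to -0.644 in the Landrace pigs. It went from -0.568 to -0.312 in batch 2 and from -0.738 to -0.605 in batch 5. These 4 subsets were chosen after seeing the data and are given without a test.

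**Figure D4:**
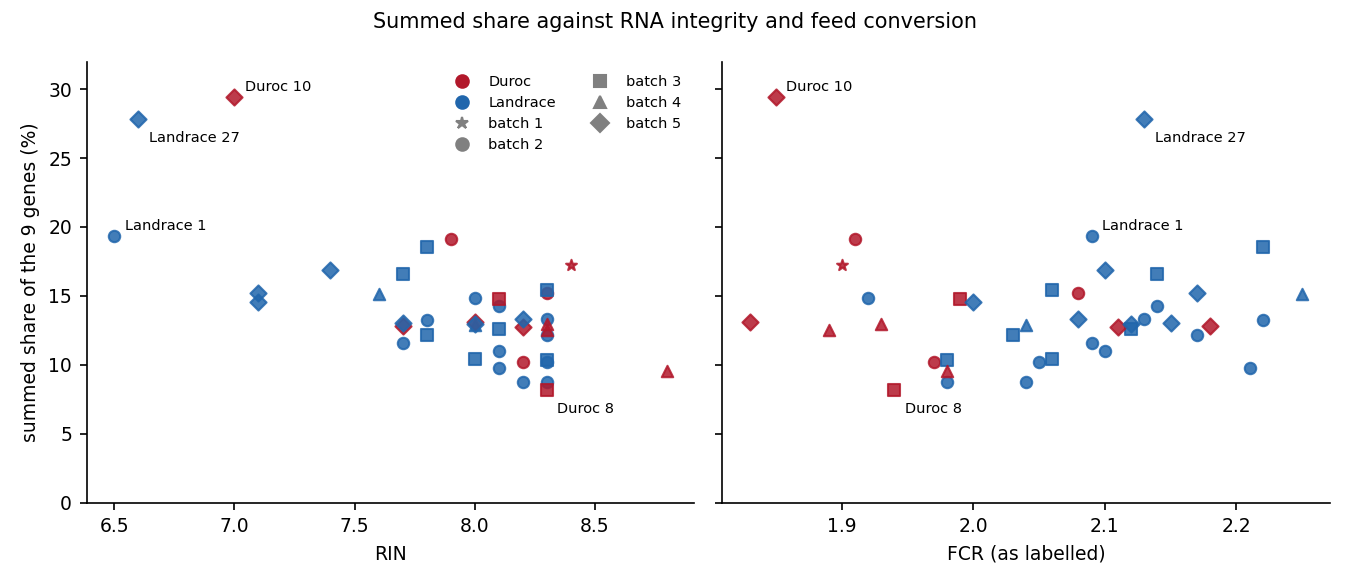
Summed share of the 9 genes (% of counts on genes) against RIN, left, and against FCR as labelled, right, for 41 pigs, with colour for breed and marker shape for batch. The 3 pigs with the lowest RIN, Landrace 1, Landrace 27 and Duroc 10, have the highest sums, and no common slope with FCR is visible.

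Other measures of the libraries moved with the summed share as well, and their part in the relation to RIN was not tested. The correlation of the sum was r = -0.815 with the counts on genes and 0.871 with the percentage of pairs outside genes, which ran from 7.53% to 16.2% (n = 41). The share of ACTA1 had r = -0.654, and the summed CPM of the muscle fibre genes -0.736. Without Duroc 10 and Landrace 27 these values were -0.537 for the counts on genes, 0.670 for the pairs outside genes, -0.388 for ACTA1 and -0.453 for the muscle fibre genes. Of the other marker lists, the slow fibre genes had r = 0.285 with the sum, the fast fibre genes -0.0489, the red blood cell genes 0.473, the leukocyte genes -0.430, the endothelial genes -0.317, the fibroblast genes -0.299, the adipocyte genes -0.202 and the smooth muscle genes -0.110. Without the same 2 pigs these were 0.467, -0.244, 0.385, -0.465, -0.210, -0.256, -0.131 and -0.00097 in the same order. In the edgeR fit, 6 of 7 slow fibre, 2 of 2 red blood cell, 3 of 5 fast fibre, 2 of 4 muscle fibre and 1 of 6 leukocyte genes were lower with RIN, while 1 fast fibre and 3 of 5 fibroblast genes were higher, where 27.9% of all genes were lower and 23.9% higher. Under library size scaling, 3 of 7 slow fibre, 2 of 2 red blood cell, 3 of 5 fast fibre and 0 of 4 muscle fibre genes were lower, while 1 fast fibre, 2 muscle fibre, 4 of 5 fibroblast, 2 of 6 leukocyte, 1 of 3 endothelial and 1 of 2 adipocyte genes were higher, where 7.91% of all genes were lower and 55.8% higher. No defining marker of muscle was at 0 in any pig, and the adipocyte hormone gene LEP had a median of 0 CPM.

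The breeds overlapped in the levels of all 9 genes. Duroc pigs had a summed share of 14.5% ± 5.40 (SD, n = 13) that ran from 8.21% to 29.4%, and Landrace pigs one of 13.8% ± 3.86 (SD, n = 28) that ran from 8.76% to 27.9%. The medians were 13.0% and 13.1%, and the ranges overlapped almost whole. ND1 had a median of 0.924% in Duroc, from 0.438% to 2.14%, and of 0.852% in Landrace, from 0.562% to 1.81%. COX1 had a median of 2.12% in Duroc, from 1.49% to 4.99%, and of 2.19% in Landrace, from 1.33% to 5.06%. The groups overlapped in both genes.

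ND2 had a median of 0.972% in Duroc, from 0.580% to 2.29%, and of 1.02% in Landrace, from 0.661% to 2.02%. ND4 had a median of 1.17% in Duroc, from 0.567% to 2.59%, and of 1.11% in Landrace, from 0.737% to 2.24%. ND5 had a median of 0.778% in Duroc, from 0.451% to 1.53%, and of 0.748% in Landrace, from 0.504% to 1.43%. In all 3 of these complex I genes the lowest and the highest pig were Duroc. CYTB had a median of 1.14% in Duroc, from 0.725% to 2.68%, and of 1.12% in Landrace, from 0.757% to 2.12%. COX2 had a median of 1.71% in both breeds, from 0.961% to 3.28% in Duroc and from 1.10% to 3.56% in Landrace. COX3 had a median of 2.04% in Duroc, from 1.56% to 5.10%, and of 2.17% in Landrace, from 1.42% to 4.84%. For these 3 genes the breed medians differed by less than the SD within either breed. ATP6 had a median of 2.26% in Duroc, from 1.09% to 4.83%, and of 2.23% in Landrace, from 1.48% to 4.79%.

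In the joint edgeR fit, 0 of 9 members were called for breed, with 0 members at an unadjusted p under 0.05, where 33.1% of all genes were called and 17.5% were called lower. DESeq2 also called 0 members, with 3723 of 10765 genes called, and limma with voom 0 members, with 3662 of 11146 genes called. The log2 coefficient (Landrace relative to Duroc) was below 0 for all 9, from -0.18 for CYTB (SE 0.179, p = 0.333, FDR 0.503) to -0.04 for ND2 (SE 0.191, p = 0.851, FDR 0.918), with a median of -0.12. With library size in place of TMM the median of all genes was -0.18 and CYTB was called, at -0.34 (SE 0.146, FDR 0.0755, with 37.1% of genes called). Scaled to the genes outside the 13 mitochondrial protein genes it was also called, at -0.40 (SE 0.171, FDR 0.0644, with 44.4% of genes called). In the permutation test on shares 0 of 9 were called, with 0 at an unadjusted p under 0.05, where 19.8% of genes were called. All 9 means were lower in Landrace, with p from 0.300 for CYTB to 0.961 for ATP6, while 5 of 9 were lower in TMM-scaled CPM. The direction also turned between batches, with all 9 lower in Landrace pigs in batches 2 and 5 and higher in batches 3 and 4. The summed share differed by -2.58, -0.763, 2.24 and 2.35 percentage points in that order. These batches held only 3, 4, 2 and 3 Duroc and 12, 7, 7 and 2 Landrace pigs in the same order.

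FCR showed no relation that passed a test. In the joint edgeR fit 0 of 9 members and 0 of 11146 genes (0% of genes) were called, with 0 members and 968 genes at an unadjusted p under 0.05, and DESeq2 called 5 genes and limma with voom 0, none of them members. The log2 coefficient per 0.1 of FCR was below 0 for all 9, from -0.09 for COX1 (SE 0.0631, p = 0.142, FDR 0.673) to -0.04 for ATP6 (SE 0.0755, p = 0.585, FDR 0.884). The coefficients of the other 7 lay between these.

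The sign for FCR differed between subsets of the pigs and, for 2 of 9 members, with the scaling. Without Duroc 10, a pig with a low FCR and the highest share, the median coefficient of the members per unit of FCR went from -0.62 to -0.05, and 4 of 9 members turned positive. Within the Landrace pigs 8 of 9 were positive. With library size in place of TMM 2 of 9 were positive, and the median was -0.04, while that of all genes was 0.61. In the permutation test on shares r with FCR ran from -0.110 to 0.0485 with 0 of 9 called (0.188% of genes), and without Duroc 10 and Duroc 11, the pigs farthest from the median FCR, it ran from 0.0698 to 0.255 with 0 of 9 called (0.0179% of genes). Within the Duroc pigs r was -0.421 to -0.241 and within the Landrace pigs 0.187 to 0.301, with 0 of 9 called in either (1.92% and 0% of genes). In batch 3 (n = 9) r was 0.619 to 0.829, and 8 of 9 members had an unadjusted p under 0.05 in the exact permutation test, as did 3.83% of all genes, but the adjusted p was 0.998 for all. In batches 2 and 5 r was negative for all 9, from -0.215 to -0.0972 and from -0.409 to -0.255. The FCR by breed term of the edgeR model called 0 of 9 members and 0 genes, with 0 members and 582 genes at an unadjusted p under 0.05.

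**Figure D5:**
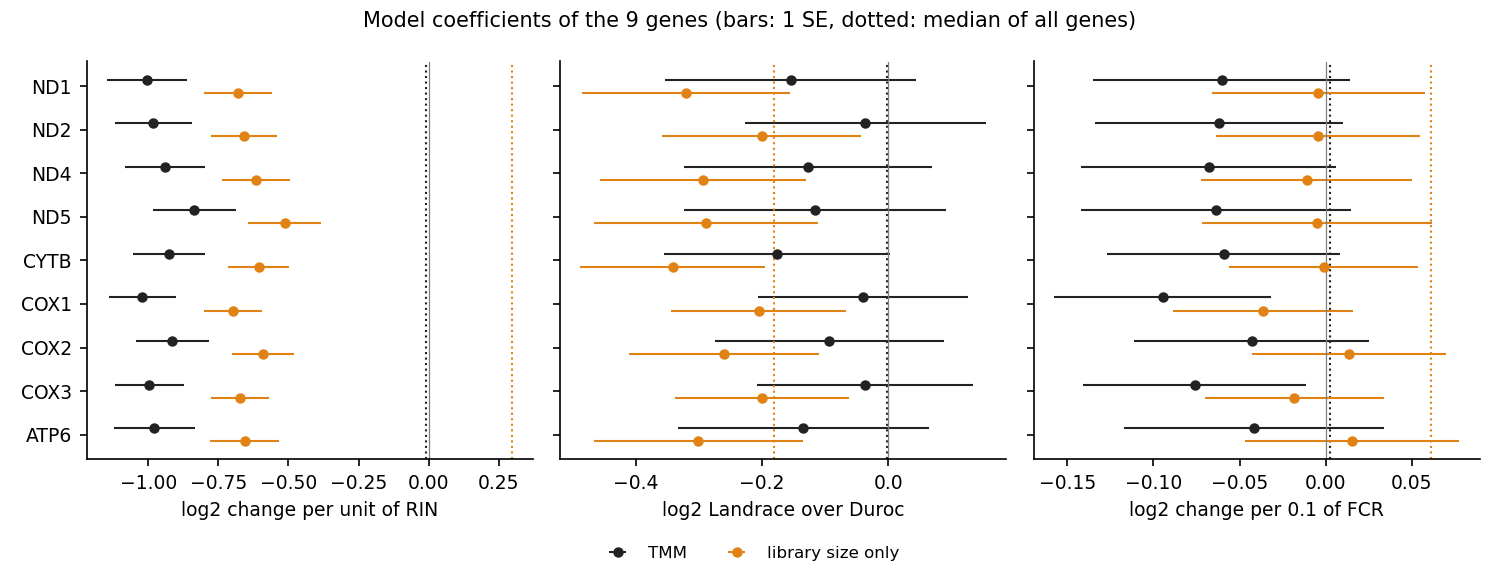
Log2 coefficient ± 1 SE of each of the 9 genes for RIN (per unit), breed (Landrace relative to Duroc) and FCR (per 0.1), with TMM and with library size only, and dotted lines at the median of all genes tested. The RIN coefficients lie from -1.02 to -0.84 with TMM, far below the line, while the bars of the breed and FCR coefficients with TMM cross or lie close to it.

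For age and batch the tests called at most 1 member in the joint fit. For age 0 of 9 were called, with 0 at an unadjusted p under 0.05, where 1.76% of genes were called. For batch 1 of 9 was called, COX1 (p = 0.00711, FDR 0.0508), where 24.1% of genes were called. Its share was 3.70% in the single pig of batch 1, 2.07% ± 0.550 (SD, n = 15) in batch 2, 2.30% ± 0.516 (n = 9) in batch 3, 2.01% ± 0.327 (n = 5) in batch 4 and 2.77% ± 1.13 (n = 11) in batch 5. Without Duroc 2, the pig of batch 1, 0 of 9 were called for batch, and without Duroc 13 2 of 9. Over the 41 fits that left out 1 pig, 1528 to 3254 of all genes were called for batch. The summed share was 17.2% in batch 1, 12.8% ± 3.34 in batch 2, 13.2% ± 3.35 in batch 3, 12.6% ± 2.01 in batch 4 and 16.5% ± 6.13 in batch 5, whose mean RIN of 7.55 was the lowest.

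Many nuclear genes of the same complexes were also lower with RIN in the TMM fit, in lists taken by symbol, where 27.9% of all genes were. For complex I, 26 of 27 genes tested were lower and 0 higher, with a median log2 coefficient of -0.52. NDUFS5, an accessory subunit, had -0.75 (SE 0.0810, FDR 1.72e-08). NDUFA4, named for complex I although later work places it in complex IV, had -0.39 (SE 0.108, FDR 0.0034). For complex II, which has no mitochondrially encoded subunit, 3 of 4 were lower with a median of -0.33, SDHA, its flavoprotein subunit, at -0.50 (SE 0.0725, FDR 1.41e-06). For complex III 5 of 6 were lower with a median of -0.58, and UQCR11, one of its small subunits, had -0.89 (SE 0.0884, FDR 7.73e-09).

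Complex IV came closest to the members. All 12 genes tested were lower with RIN, with a median of -0.76, and COX8A, a small subunit of cytochrome c oxidase, had -0.99 (SE 0.0892, FDR 3.27e-09). COX4I1, another nuclear subunit, had -0.94 (SE 0.10, FDR 1.33e-08). For complex V all 10 genes were lower with a median of -0.36. ATP5ME had -0.85 (SE 0.0979, FDR 3.79e-08), and ATP5F1A, the alpha subunit of its F1 part, had -0.27 (SE 0.0953, FDR 0.0183). The median of all genes was -0.01. With library size in place of TMM, where it was 0.30 and 7.91% of genes were lower, 17 of 27 complex I, 1 of 4 complex II, 4 of 6 complex III, 9 of 12 complex IV and 4 of 10 complex V genes were lower. The list medians were then -0.20, -0.01, -0.27, -0.44 and -0.05. Without any model, r of the summed CPM with RIN was -0.169 for complex I, 0.190 for complex II, -0.0491 for complex III, -0.546 for complex IV and 0.115 for complex V (n = 41).

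Genes that act on mitochondrial DNA and RNA were called in both directions with TMM, at shares close to the 51.8% of all genes called for the first 2 of the 3 lists. Of 8 genes of mitochondrial transcription, 3 were higher and 1 lower with RIN, with a median of 0.20. TFAM, which packages mitochondrial DNA and starts its transcription, had 0.18 (SE 0.0599, FDR 0.0145), while TFB1M, which methylates mitochondrial ribosomal RNA, had -0.38 (SE 0.0976, FDR 0.00162). Of 15 genes of mitochondrial RNA processing, 3 were higher and 4 lower with a median of 0.00, and FASTKD1, a mitochondrial RNA-binding protein, had -0.51 (SE 0.0758, FDR 1.86e-06). Of 10 genes of mitochondrial DNA maintenance, 2 were higher and 5 lower with a median of -0.12. RRM2B, a subunit of the enzyme that makes deoxynucleotides, had 1.11 (SE 0.184, FDR 9.14e-06), and SSBP1, the mitochondrial single-strand binding protein, had -0.38 (SE 0.0713, FDR 5.21e-05). Under library size scaling, 7 of 8, 10 of 15 and 4 of 10 were higher and 0, 2 and 0 lower in these 3 lists, where 55.8% of all genes were higher. MTERF2 had the smallest p for RIN of the transcription list, at 0.32 (SE 0.0769, FDR 0.000896), and RNASEH1, which removes RNA from RNA-DNA hybrids, had the most counts of the maintenance list, at -0.34 (SE 0.0609, FDR 2.83e-05).

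For FCR no gene of any of these lists was called. The genes with the smallest p in their lists had log2 coefficients per unit of FCR of -1.28 for COX8A (SE 0.468, p = 0.00931, FDR 0.529), -1.25 for NDUFS3 (SE 0.467, p = 0.0110, FDR 0.529), -1.18 for ATP5MC1 (SE 0.567, p = 0.0451, FDR 0.569) and -0.90 for UQCRC1 (SE 0.430, p = 0.0428, FDR 0.563). SDHA had -0.54 (SE 0.374, p = 0.159, FDR 0.676). In the other lists SLIRP had -1.22 (SE 0.527, p = 0.0265, FDR 0.544), SSBP1 -0.75 (SE 0.362, p = 0.0468, FDR 0.573) and TFB1M -0.74 (SE 0.476, p = 0.129, FDR 0.657), against a median of all genes of 0.03. The list medians were -0.69 for complex I, -0.29 for complex II, -0.78 for complex III, -0.73 for complex IV and -0.60 for complex V. Under library size scaling, where the median of all genes was 0.61, they were -0.12, 0.28, -0.22, -0.16 and -0.03, so that the sign for complex II turned.

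The nuclear genes most like the members over the 41 pigs were sought among 9816 named genes by Pearson's r between the log2 CPM and the log2 summed CPM of the 9. METAP2, an enzyme that removes the first methionine of new proteins, had the highest r, 0.763, with 43.9 ± 5.85 CPM (SD, n = 41). COX4I1 (0.729), the translation factor subunit EIF3J (0.727), COX7B (0.717) and the splicing protein SNRNP27 (0.705) followed, so that 2 of the 5 encode subunits of complex IV. The lowest were the Golgi mannosidase MAN2A2 at -0.875, SAE1, which activates SUMO, at -0.867 and the cell polarity protein PARD3 at -0.865. In total 108 genes had r above 0.5 and 3539 below -0.5. A CPM is a share of the same total as the members, and the part of this in the values of r was not tested. The r with RIN was -0.696 for METAP2 and 0.722 for MAN2A2.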

How the data were processed

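RNA from the psoas major muscle of 41 boars was sequenced as read pairs after polyA selection. The authors trimmed the pairs, used STAR to align them to Sscrofa11.1, and deposited whole counts per gene without normalization, and the submitters' processing notes name Trimmomatic 0.39 and STAR 2.7.1a. The deposited counts of the unstranded column were used. STAR leaves out pairs that fall on more than 1 gene or align to more than 1 place, so pairs across overlapping mitochondrial genes and pairs shared with nuclear copies of mitochondrial DNA were not counted. Between 19.1% and 30.1% of the pairs of a pig stood on the 4 total lines, which name no gene and were left out.

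The share of a gene is its count as a percentage of all counts on genes of that pig, and the level per kb divides that share by the length of the RefSeq gene model of Sscrofa11.1. Genes were filtered with filterByExpr, and edgeR 4.0.16 (R 4.3.3) was run with TMM normalization and its legacy quasi-likelihood test on a model of batch (a factor), breed, age, RIN and FCR, following the model in the methods of the paper. FDR values are Benjamini-Hochberg values over all 11146 genes tested, with the threshold of 0.1 used there. The standard error of a coefficient is its size divided by the square root of the F statistic. Shares were also tested with 100000 permutations of the pigs, where the smallest p is 1e-05, or exactly, over every permutation, in groups of fewer than 10 pigs. All tests were two-sided. Python 3.11.15 with NumPy 2.4.6, pandas 2.3.3, SciPy 1.17.1 and matplotlib 3.10.9 served for the remaining steps, and the edgeR step was tested on simulated data.

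The alternatives were DESeq2 1.42.0, limma 3.58.1 with voom, library size in place of TMM, other count filters, a model without age, batch as a number, the sum of the strand columns, each breed on its own, leaving out the pigs with RIN below 7, and leaving out each pig in turn. The fits without Duroc 8, Duroc 10 and Landrace 27, and those scaled to the genes outside the 13 mitochondrial protein genes, were chosen after seeing the data. The members, the gene lists and the tests were chosen with earlier results of these data known. In each list the gene with the most counts and those with the smallest p for RIN and for FCR were named, and for likeness the 5 nuclear genes with the highest and the 3 with the lowest correlation. The labels name each pig as a separate sample, and the lowest chi-squared per degree of freedom over all 820 pairs of libraries was 17.8, so each pair differed by more than counting noise.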

Additional observations from a re-analysis of the deposited data

Results flagged for a closer look

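The deposited files also hold counts by strand, which the comparisons did not use. Were all pairs countable without strand, the sum of the strand columns would equal the unstranded count, but for COX1 it exceeded it by 8.72% ± 1.44 (SD, n = 41, from 5.37% to 11.4%) and for ND5 by 14.7% ± 1.75 (from 9.92% to 21.7%). ND5 shares 17 bases with ND6 on the other strand, and ND6 had an excess of 33.1% ± 2.98. For each of the other 7 members the mean excess was at most 0.0445%, and over all genes it was 13.7% ± 0.994. The share of the pairs on the first strand column ran from 45.7% for COX2 to 57.7% for ND1, against 49.6% for all genes.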

How the results depend on the processing

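All 9 members were lower with RIN under every alternative fitted for RIN, and none was called for FCR or for age under any. Leaving out 1 pig moved the number called for batch between 0 (without Duroc 2) and 2 (without Duroc 13), and it was 0 with batch as a number and in the Landrace pigs only. For breed 1 member, CYTB, was called with library size only and 1, CYTB again, with the library size of the genes outside the mitochondrial protein genes. The permutation test for RIN called 3 members within batch 2 and 0 within batch 3. On shares all 9 means were lower in Landrace pigs, against 5 in TMM-scaled CPM and 0 within batches 3 and 4.

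The log2 coefficients for FCR, below 0 in the reported fit, turned positive in the Landrace pigs only for ND1 (0.16), ND2 (0.060), COX2 (0.076), ATP6 (0.24), COX3 (0.071), ND4 (0.12), ND5 (0.010) and CYTB (0.18), and in the Duroc pigs only for ATP6 (0.027). Without Duroc 8, Duroc 10 and Landrace 27 they did so for ND1 (0.084), ND2 (0.10), COX2 (0.030), ATP6 (0.18), ND5 (0.016) and CYTB (0.080), with library size only for COX2 (0.13) and ATP6 (0.15), and scaled to the genes outside the mitochondrial protein genes for COX2 (0.053) and ATP6 (0.067). Leaving out each pig gave -0.77 to 0.0061 for ND1, -0.79 to 0.041 for ND2, -0.56 to 0.12 for ATP6 and -0.75 to 0.019 for CYTB, the highest without Duroc 10. The median r of the shares with FCR was 0.719 within batch 3, 0.264 within Landrace and 0.157 without the 2 pigs farthest from the median FCR. For breed, the coefficients turned positive without Duroc 8, Duroc 10 and Landrace 27 for ND2 (0.071), COX1 (0.054) and COX3 (0.068), and leaving out each pig gave -0.12 to 0.090 for ND2, -0.13 to 0.10 for COX1, -0.18 to 0.038 for COX2 and -0.14 to 0.082 for COX3. Duroc 3, Duroc 10 and Landrace 8, 10, 14 and 23 were the pigs behind the positive values. The cause was not tested for these changes.

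Over all genes, DESeq2 called 5 for FCR against 0 in the reported fit. For age 196 were called, against 45 with library size only, 541 with DESeq2, 99 without a filter, 814 with batch as a number, 0 in the Landrace pigs only and 299 scaled to the genes outside the mitochondrial protein genes. For batch 2686 were called, against 1773 without age and 1611 with batch as a number. Leaving out each pig gave 0 to 484 for age, where the count moved by over 1.5 times without Duroc 4, 5, 7, 12 and 13 (85, 97, 484, 438 and 0) and Landrace 3, 11, 15, 16, 17, 18, 20, 22 and 24 (110, 36, 58, 117, 127, 325, 45, 326 and 100). It gave 1528 (without Landrace 24) to 3254 for batch, and 1 for FCR without Landrace 6. No paired analysis was possible because the labels give no replicate numbers that link Duroc and Landrace pigs. Depth does not limit these genes, which held at least 113140 counts in a pig. The limits lie in the number of pigs, in the uneven spread of RIN over few pigs below 7.4 and in the pairs lost at gene overlaps.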

Other observations

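Breed was also tested for the nuclear genes of the same complexes. In edgeR's quasi-likelihood test with Benjamini-Hochberg adjustment, 4 of 12 complex IV genes were lower in Landrace than in Duroc pigs and 0 higher, with a median log2 coefficient of -0.17, where 33.1% of all genes were called and 17.5% were lower. COX8A had -0.68 (SE 0.125, FDR 0.000172) and COX4I1 -0.32 (SE 0.140, FDR 0.093). For complex I 6 of 27 were lower and 1 higher, and for complex V 3 of 10 were lower and 0 higher, ATP5F1A at -0.48 (SE 0.128, FDR 0.00592). For complexes II and III 1 of 4 and 1 of 6 were lower. With library size in place of TMM, where the median of all genes was -0.18, 9 of 12 complex IV, 19 of 27 complex I, 7 of 10 complex V, 2 of 4 complex II and 5 of 6 complex III genes were lower, where 32.3% of all genes were.

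Fibre type markers were tested for breed in the same fit. Of the slow fibre genes 3 of 7 were lower in Landrace pigs and 0 higher, and TNNI1, the slow troponin I, had -0.79 (SE 0.302, FDR 0.0514). Of the fast fibre genes 4 of 5 were higher and 0 lower, with TNNT3, the fast troponin T, at 0.60 (SE 0.131, FDR 0.00108), where 15.6% of all genes were higher and 17.5% lower. Under library size scaling 7 of 7 slow fibre genes were lower and 4 of 5 fast fibre genes higher, where 32.3% of all genes were lower and 4.79% higher. Markers of other cell types were lower in Landrace pigs as well, with 3 of 3 endothelial (median -1.01), 2 of 2 smooth muscle (-1.55), 2 of 5 fibroblast (-0.84), 1 of 2 adipocyte and 1 of 6 leukocyte genes, and 0 of these higher. For KDR, an endothelial receptor of vascular growth factor, the coefficient was -1.48 (SE 0.219, FDR 9.52e-06). Of the muscle fibre genes 3 of 4 were higher, and 1 of 4 under library size scaling, where 3 of 3 endothelial, 2 of 2 smooth muscle and 3 of 5 fibroblast genes were lower. Their part in the levels of the mitochondrially encoded genes was not tested.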
